A study of Danio rerio with 16 samples.

Results

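The effect of the antidepressant fluoxetine (FLX) on liver miRNAs was compared between fed and fasted zebrafish, as the FLX difference in fasted fish (Fasted/FLX minus Fasted) minus the FLX difference in fed fish (Fed/FLX minus Fed). All 16 arrays of the series entered this comparison, 4 for each of the groups Fed, Fed/FLX, Fasted and Fasted/FLX. The fish were adult females, FLX was given in the water at 540 ng/L for 7 days, and the Fed and Fasted groups had none. Fed fish were fed over these 7 days and Fasted fish were not, and each sample was RNA from pooled livers. The study reports food in the gut of the Fed/FLX fish and states that the amount they ate is not known. Each group was kept in 1 tank, so that group and tank cannot be told apart, also for the interaction, and the replicates measure the spread between pools of fish from the same tank. The array held 248 zebrafish miRNAs (dre-miR names, written here without the prefix).

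A miRNA is a short RNA that guides the silencing complex to messenger RNAs that pair with its seed, the bases near its 5′ end, and lowers their translation or stability. miRNAs with the same seed form a family and share many targets. FLX blocks the reuptake of serotonin, which in fish acts on feeding as well as on the brain. In mammals the miR-29 family is known for repressing collagen and other matrix genes and for acting on insulin signalling in liver, and the miR-181 family for setting the sensitivity of lymphocytes. miR-103 and miR-107 act on insulin sensitivity in mouse liver, miR-122 is the liver's most typical miRNA, and let-7 members restrain growth-promoting genes.

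The 16 arrays detected between 64 and 92 miRNAs each, a miRNA being detected where at least 50% of its spots were well above background. The number detected was 71.0 ± 5.35 in Fed, 76.8 ± 10.5 in Fed/FLX, 76.2 ± 2.06 in Fasted and 87.5 ± 4.65 in Fasted/FLX (SD, n = 4). It was higher by 11.2 in Fasted/FLX than in Fasted (two-sided exact permutation, p = 0.0286, below which 4 arrays against 4 cannot go) and by 5.75 in Fed/FLX than in Fed (exact permutation test, p = 0.4, and 2.33 to 9.67 with 1 array left out). By the scanner software's own detection mark the difference in fasted fish was 4.5 (exact permutation test, p = 0.314). Before scaling, the 99th percentile of spot intensity was 917 to 1178 in Fed, 1256 to 1611 in Fed/FLX, 1151 to 1441 in Fasted and 1732 to 2693 in Fasted/FLX, so that brightness moved with the groups. Its part in the results was not tested, and the calls under other scalings stand in the closing section. The liver marker miR-122 was detected on all 16 arrays, and its interaction was -0.01 (log2, 95% interval -0.44 to 0.42). Quantile normalization gives the brightest spots of every array the same values, so this cannot show a steady level. Normalized, miR-122 was at 12.32 to 12.33 on all 4 Fasted/FLX arrays. Its total signal before scaling was 14313 to 17736 in Fed and 13326 to 23424 in Fed/FLX. In Fasted it was 17335 to 25691 and in Fasted/FLX 20995 to 29089. The 4 muscle markers measured had a summed total signal of 0.4 to 18.6 on the Fed arrays and of 0.4 on all others, and the maternal miR-430a was at 0.1 on all, the value the scanner software writes for a miRNA it did not detect.

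The group of each array is that of its scanner file's title. The authors also deposited a value table, and 14 of its 16 columns held the scan of another sample than the one in the heading, 12 of them of another group. The columns of that table follow the positions on the slides, row by row. Its Fed and Fasted headings hold the scans of slide 1, and its Fed/FLX and Fasted/FLX headings those of slide 2. By the titles of the scanner files, each slide held 2 arrays of every group. Which of these labellings is right cannot be told from the files, and every result here rests on the titles of the scanner files.

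By the interaction test the FLX difference depended on feeding state for 4 miRNAs, of which miR-181c was detected on no array. Without quantile normalization none was called. The group means of miR-29a and miR-29b were lower with FLX in fed fish and higher with FLX in fasted fish, while those of miR-181a-5p and miR-181c were higher with FLX in fed fish and lower in fasted fish. In fed fish alone, the differences of miR-29a (adjusted p = 0.131 in limma) and miR-181c (adjusted p = 0.135 in limma) were not past the threshold. These were the 4 of 248 miRNAs tested (1.61%) whose interaction had an adjusted p under 0.05 in limma with Benjamini-Hochberg adjustment over all 248, and 0.806% were called in each direction. In bulk liver RNA, fewer cells of a type and less RNA per cell cannot be told apart.

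miR-29b had RMA values (normalized log2 intensities) of 6.03, 6.23, 6.11 and 5.90 on the Fed arrays and of 5.24, 6.09, 5.47 and 5.46 on the Fed/FLX arrays. On the Fasted arrays it was at 5.49, 5.80, 6.01 and 5.72, and on the Fasted/FLX arrays at 6.29, 6.34, 6.30 and 6.23. All 4 Fasted/FLX arrays were above all 4 Fasted arrays, whereas in fed fish 1 array with FLX, Fed/FLX 2, lay within the range of the Fed arrays. The FLX difference was -0.50 (log2, SE 0.15, adjusted p = 0.0432 in limma) in fed and 0.54 (SE 0.15, adjusted p = 0.0491) in fasted fish. Both lay close to the threshold: with the slide as a block the adjusted p was 0.0528 and 0.0646 in limma, and of the 16 fits with 1 array left out 4 called the difference in fed and 3 that in fasted fish. The interaction was 1.04 (log2, SE 0.21, 95% interval 0.59 to 1.49, adjusted p = 0.0175 in limma), and all 16 fits with 1 array left out called it. Other scalings and background corrections gave 0.54 (with a background offset of 50, which compresses differences) to 1.49. miR-29b was detected on all arrays of the other 3 groups and on 1 of 4 Fed/FLX arrays, and by the scanner software's mark on all 16.

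miR-29a, which shares the seed of miR-29b, had values of 7.96, 8.12, 8.27 and 7.93 in Fed and of 7.42, 8.11, 7.85 and 7.65 in Fed/FLX. It had 7.78, 7.83, 7.99 and 7.70 in Fasted and 8.57, 8.34, 8.29 and 8.28 in Fasted/FLX. The pattern over arrays was that of miR-29b, with no overlap in fasted fish and Fed/FLX 2 again among the Fed arrays. The FLX difference was 0.54 in fasted fish (log2, SE 0.13, adjusted p = 0.0227 in limma), and in fed fish it was -0.32 with an adjusted p of 0.131. The interaction was 0.86 (log2, SE 0.18, 95% interval 0.47 to 1.25, adjusted p = 0.0192 in limma). It had an adjusted p of 0.05 or above without Fasted 1, Fasted 4 or Fasted/FLX 1, and its highest adjusted p with 1 array left out was 0.0596. Probes of miR-29a and miR-29b may share signal, which was not tested, so that their like patterns need not be separate observations.

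miR-181a-5p had values of 6.52, 6.14, 6.00 and 5.71 in Fed and of 6.95, 6.44, 6.70 and 6.52 in Fed/FLX. It had 6.56, 6.46, 6.51 and 6.56 in Fasted and 5.74, 5.96, 6.08 and 5.63 in Fasted/FLX. Every Fasted/FLX array was below every Fasted array, and in fed fish the array Fed 1 reached into the range of the Fed/FLX arrays. The FLX difference was 0.56 (log2, SE 0.15, adjusted p = 0.0299 in limma) in fed and -0.67 (SE 0.15, adjusted p = 0.0197) in fasted fish. The interaction of -1.23 (log2, SE 0.22, 95% interval -1.69 to -0.77, adjusted p = 0.00606 in limma) was past the threshold whichever array was left out, between -1.37 and -1.11. The difference in fed fish was called in 11 and that in fasted fish in 13 of these 16 fits.

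miR-181c, whose mature form is closely related to that of miR-181a-5p, was near background, and no fold is given for it. It was detected on 0 of 16 arrays by the share of spots, while the scanner software marked it as detected on 0 Fed, 2 Fed/FLX, 4 Fasted and 0 Fasted/FLX arrays. Its values were 3.76, 3.46, 3.51 and 3.53 in Fed, 3.90, 3.68, 3.71 and 3.91 in Fed/FLX, 3.59, 3.75, 4.03 and 3.85 in Fasted, and 3.18, 3.15, 3.22 and 2.98 in Fasted/FLX. Fasted/FLX stood below the other groups on each of its 4 arrays, and the interaction had an adjusted p of 0.00274 in limma. Probes for such close relatives may share signal, and this was not tested.

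**Figure D1:**
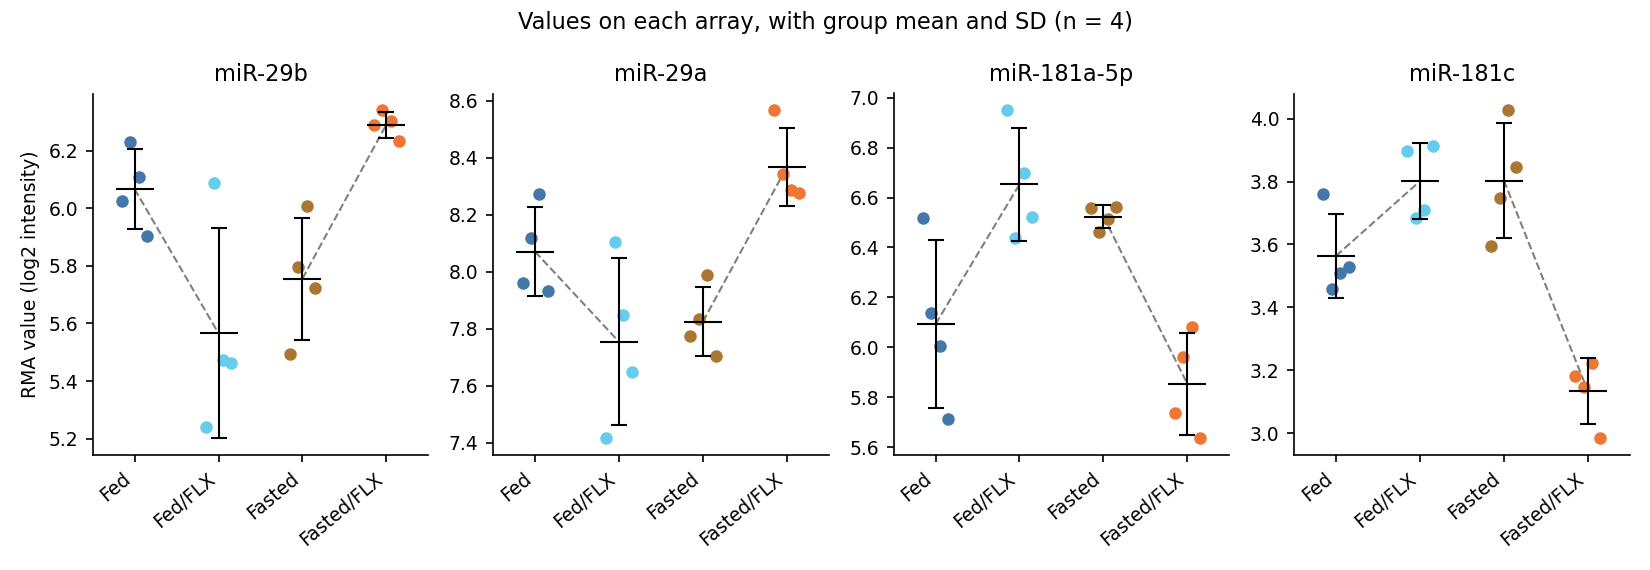
RMA values (log2 intensity) of the 4 miRNAs with an interaction adjusted p under 0.05, with 1 point per array, the group mean and the SD (n = 4 per group). Dashed lines join the group means with and without FLX, and their slopes are opposite in fed and fasted fish. miR-29b and miR-29a are highest in Fasted/FLX, and miR-181a-5p and miR-181c are lowest there.

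Each of these miRNAs was read by 2 probes of 30 spots. The interaction of the single probes was 0.93 and 1.12 for miR-29b, 0.83 and 0.87 for miR-29a, and -1.21 and -1.24 for miR-181a-5p (log2). The probes of 1 miRNA thus gave the same sign. The third measured miR-181 form, miR-181a-3p, was detected on no array, with an interaction adjusted p of 0.429 in limma.

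The 4 miRNAs belong to 2 families, and in the RefSeq gene table (assembly GRCz12tu) the genes of each family stand next to each other. mir29a-1 has a miR-29b gene as its next listed gene on chromosome 4, and mir181a-3 is followed by mir181c on chromosome 3. miR-29b and miR-181a have further genes on other chromosomes, and the arrays do not tell from which gene a mature miRNA came.

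The difference between fasted and fed fish also depended on FLX for these miRNAs, which restates the same interaction from the same arrays. Without FLX no miRNA of 248 (0%) had an adjusted p under 0.05 for Fasted against Fed in limma, and 29 had an unadjusted p under 0.05. With FLX 4 (1.61%) did for Fasted/FLX against Fed/FLX, and these were the same 4 miRNAs. miR-29b was at -0.31 (adjusted p = 0.394 in limma) without and at 0.73 (adjusted p = 0.0175) with FLX. miR-181a-5p was at 0.43 (adjusted p = 0.273 in limma) without and at -0.80 (adjusted p = 0.0142) with FLX (log2).

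Opposite signs by themselves were common. The FLX differences of fed and fasted fish had opposite signs in 106 of 248 miRNAs (42.7%), and in 30 of the 79 miRNAs (38.0%) detected on all 4 arrays of at least 1 group. The count over all miRNAs was 136 without quantile normalization, 81 and 82 with a 75th percentile of spot signals (over detected and over all miRNAs), and 48 with total gene signals or without background correction. In the settings with 48, low signals were set to a common floor, and the median FLX difference was 0 in both feeding states. A difference of 0 has no sign and cannot count as opposite. Opposite signs with an unadjusted p under 0.05 for each of the 2 differences were found in 4 miRNAs (1.61%). These were the 4 interaction calls. The interaction is the gap between the 2 differences on the same arrays, so opposite signs enlarge it and this overlap is no separate evidence. Both differences had an adjusted p under 0.05 in miR-29b and miR-181a-5p. The number with both past the adjusted threshold fell in most other settings. It was 0 without quantile normalization, with a 75th percentile of spot signals over detected miRNAs, with total gene signals and without background correction. It was 1 with a 75th percentile over all miRNAs, the mean over spots, outlier spots kept, the slide as a block, an intensity trend or array weights. It stayed at 2 with a background offset of 50, the replicate block or detected miRNAs only, and was 0 to 3 with 1 array left out. The arrays did not overlap between Fed/FLX and Fed in 30 miRNAs (12.1%) and between Fasted/FLX and Fasted in 32 (12.9%). No miRNA (0%) was without overlap in both feeding states with opposite directions.

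**Figure D2:**
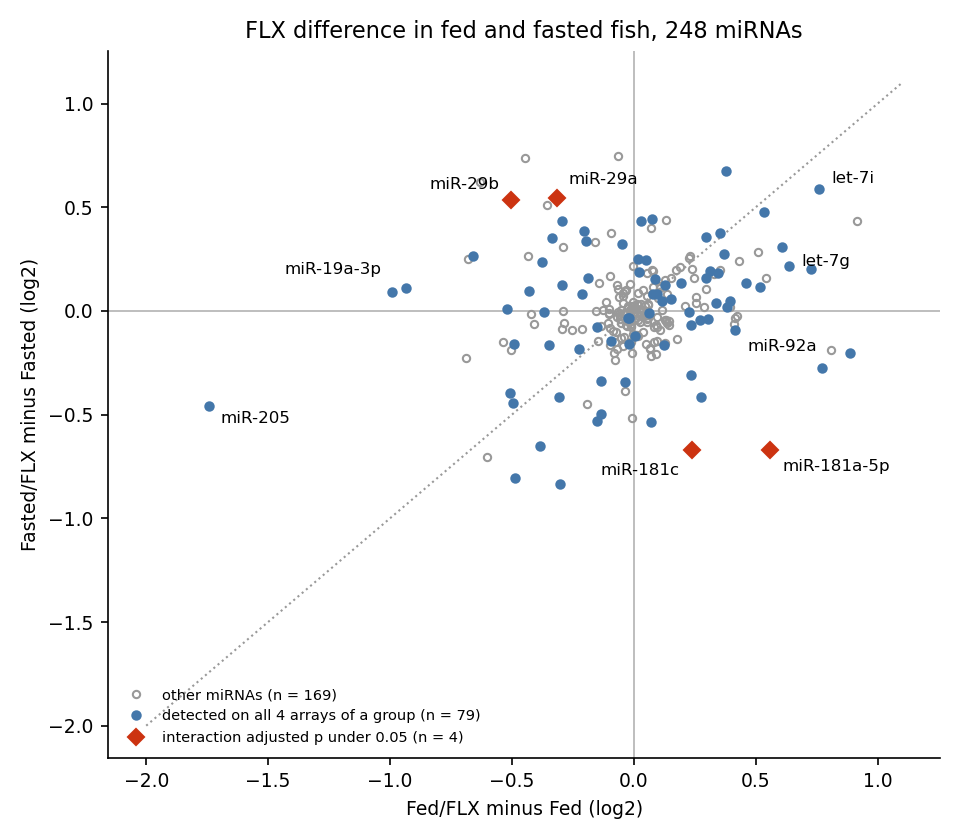
FLX difference in fed fish (x axis, Fed/FLX minus Fed, log2) against that in fasted fish (y axis, Fasted/FLX minus Fasted, log2), 1 point per miRNA (248). Points on the dotted line have the same difference in both, and the 4 red diamonds, with an interaction adjusted p under 0.05, lie in the quadrants of opposite sign.

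An unadjusted interaction p under 0.05 was reached by 32 miRNAs (12.9%), 13 positive and 19 negative, and 24 of them had opposite signs in the 2 feeding states. Opposite signs enlarge the interaction, so a choice by its p favours them, here and among the miRNAs that follow. Among detected miRNAs, the 6 further ones with a positive interaction and the 7 with a negative interaction of lowest p are given as values, since none had an adjusted p under 0.05. Of these 13, 8 had opposite signs of the 2 FLX differences and 5 had the same sign. In 4 of the 8 the difference in fasted fish was near 0 and changed sign in other settings, ranging from -0.13 to 0.30 in miR-19a-3p, from -0.03 to 0.38 in miR-30e-5p, from -0.16 to 0.28 in miR-92a and from -0.39 to 0.08 in miR-451 (log2).

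On the positive side, miR-205, a miRNA of skin and other epithelia, had the widest interval. It was at 7.94 to 8.55 in Fed, 5.63 to 7.36 in Fed/FLX, 7.40 to 8.01 in Fasted and 6.86 to 7.95 in Fasted/FLX. All Fed/FLX arrays were below all Fed arrays. It fell with FLX in fed fish by 1.74 (log2, SE 0.34, adjusted p = 0.00759 in limma) and was at -0.46 in fasted fish (adjusted p = 0.573), with an interaction of 1.28 (95% interval 0.25 to 2.32, adjusted p = 0.27). Its sign was thus the same in both feeding states.

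miR-19a-3p, of the miR-17/92 cluster known for promoting cell proliferation, was likewise low in Fed/FLX, at 4.92 to 5.84 against 6.00 to 6.77 in Fed. Its FLX difference was -0.93 in fed (adjusted p = 0.0273 in limma) and 0.11 in fasted fish (adjusted p = 0.87), with an interaction of 1.04 (adjusted p = 0.229). miR-30e-5p had an interaction of 0.53, from -0.43 in fed (adjusted p = 0.0437 in limma) and 0.10 in fasted fish. The interactions of miR-200a, miR-101b and miR-101a were 0.59, 0.73 and 0.61 (log2, adjusted p of 0.229 to 0.31 in limma). Each of the last 3 was below 0 in fed and above 0 in fasted fish, with no FLX difference past the threshold.

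On the negative side, miR-92a came closest to the threshold. Its values were 7.85, 7.83, 7.76 and 7.84 in Fed and 8.43, 8.06, 8.11 and 8.34 in Fed/FLX, against 8.31, 7.92, 8.04 and 8.15 in Fasted and 7.95, 8.04, 7.97 and 8.10 in Fasted/FLX. The Fed/FLX arrays were above all Fed arrays, while the fasted groups overlapped. It rose with FLX in fed fish by 0.42 (log2, SE 0.09, adjusted p = 0.00955 in limma) and was at -0.09 in fasted fish (adjusted p = 0.664). The interaction was -0.51 (log2, SE 0.13, 95% interval -0.78 to -0.23, adjusted p = 0.0763 in limma). Under other scalings and background corrections it ran from -0.52 to -0.13 (log2), with an adjusted p of up to 0.714 in limma.

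miR-103 had FLX differences of opposite sign, 0.27 in fed and -0.42 in fasted fish, and an interaction of -0.69 (log2, 95% interval -1.10 to -0.29, adjusted p = 0.105 in limma). In fasted fish its arrays did not overlap, at 4.71 to 4.94 without and 4.13 to 4.55 with FLX. It was detected on no Fed array and on 2 Fed/FLX arrays, while the scanner software marked it as detected on all 16 arrays. The FLX difference in fed fish had a 95% interval of -0.01 to 0.56 (log2, adjusted p = 0.241 in limma), so that a rise is not assured. For a floor, each Fed array was taken at its own value or at the lowest level of a detected miRNA on it, whichever was higher. The Fed/FLX mean was then 1.14-fold that of Fed. This floor allows for detection and not for the spread between arrays, as Fed 2 (4.69) lay above Fed/FLX 2 (4.49).

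miR-451, which is abundant in red blood cells, was at 8.13 to 9.41 in Fed, 9.21 to 10.36 in Fed/FLX, 9.38 to 9.95 in Fasted and 8.97 to 9.59 in Fasted/FLX. Its interaction of -1.05 (log2, SE 0.39, adjusted p = 0.27 in limma) joined 0.77 in fed (adjusted p = 0.0868) and -0.28 in fasted fish. miR-25 rose in fed fish by 0.73 (log2, adjusted p = 0.00674 in limma) and was at 0.20 in fasted fish, with an interaction of -0.52.

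**Figure D3:**
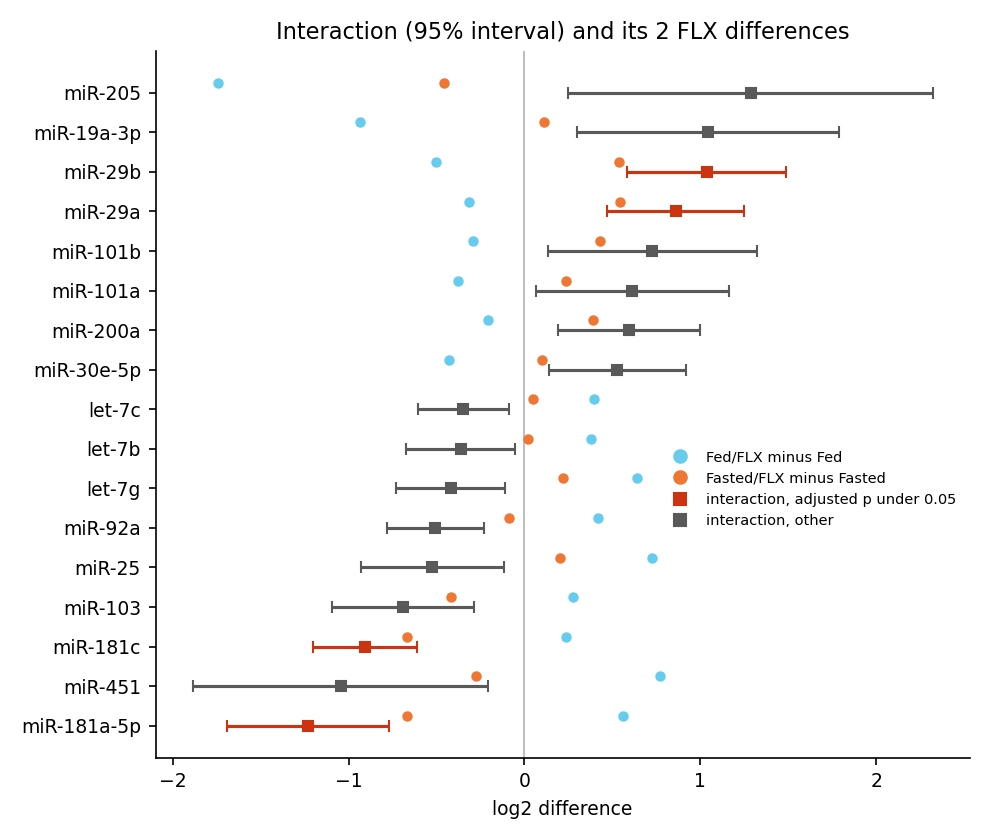
Interaction (squares, log2, bars for the 95% interval) of the 17 miRNAs named by the rule, with the FLX differences of fed (blue points) and fasted fish (orange points) above each square. Red squares had an adjusted p under 0.05, and for miR-205, miR-25 and the let-7 members both points lie on the same side of 0.

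The signals of markers of other cells were summed before scaling between arrays and are not adjusted for each array's brightness. Red cell and epithelial ranges were apart between some groups, while the immune and pancreas ranges overlapped between all groups. The summed total signal of the red cell markers (miR-451 and miR-144) was 1117 to 2246 in Fed, 1687 to 6408 in Fed/FLX, 2785 to 4867 in Fasted and 2570 to 5529 in Fasted/FLX. miR-451 gave most of that sum, and with FLX in fed fish it was at 0.77 and miR-144 at -0.30 (log2, adjusted p of 0.0868 and 0.798 in limma). That of the epithelial markers (miR-205, miR-200a and miR-203a, of which 2 of 3 were detected on all 16 arrays) was 1085 to 1476 in Fed, 241 to 777 in Fed/FLX, 845 to 1114 in Fasted and 744 to 1603 in Fasted/FLX. The immune markers were at 346 to 582, 282 to 632, 389 to 565 and 492 to 739.2 in the same order, and the pancreas markers at 128.9 to 227, 38.2 to 294, 153 to 523 and 55.6 to 362. No marker had an interaction adjusted p under 0.05, and the part of these cells in the interactions was not tested.

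In the let-7 family no measured member had FLX differences of opposite sign in the RMA values, although those of let-7b and let-7c in fasted fish were near 0 and below 0 in some other settings. Of 10 measured members, 6 rose with FLX in fed fish (let-7b, let-7c, let-7d, let-7f, let-7g and let-7i) and 1, let-7i, in fasted fish, and none fell. let-7d was detected on no array (group means of 3.45 to 3.90), and let-7b was called in 10 of the 16 fits with 1 array left out. Over all 248 miRNAs, 12.9% had an adjusted p under 0.05 for FLX in fed and 6.45% in fasted fish. The family's median FLX difference was 0.35 in fed and 0.13 in fasted fish, against 0.01 and 0.00 over all miRNAs (log2). Of its 10 members, 8 were among the 79 miRNAs detected on all arrays of at least 1 group. In those 79 the medians were 0.03 and 0.06, and 22 were called in fed and 12 in fasted fish. The family's interactions were negative in 9 of 10, with a median of -0.14 against -0.02 over all miRNAs, and 0 passed the test in limma, 3 having an unadjusted p under 0.05. Among the 79 detected miRNAs the median interaction was -0.06, and 22 had an unadjusted p under 0.05.

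Among let-7 members let-7g had the lowest adjusted p for FLX in fed fish, with 7.51 to 7.61 in Fed, 7.99 to 8.30 in Fed/FLX, 7.72 to 8.05 in Fasted and 7.92 to 8.32 in Fasted/FLX. It rose in fed fish by 0.64 (log2, adjusted p = 0.00244 in limma), was at 0.22 in fasted fish (adjusted p = 0.297), and had an interaction of -0.42 (95% interval -0.73 to -0.11, adjusted p = 0.229). Over all settings the let-7g interaction ran from -0.52 to -0.015 (log2). It was nearest 0 under other scalings or background corrections, with an adjusted p of up to 0.982 in limma. let-7c and let-7b had interactions of -0.35 and -0.36 (adjusted p of 0.229 and 0.305 in limma). let-7i rose in both, by 0.76 and 0.59, with an interaction of -0.17 (95% interval -0.67 to 0.33). It was detected on 0 Fasted arrays, so that 0.59 is a difference from values near background, with an adjusted p of 0.0491 in limma. Probes of let-7 members, which differ by few bases, may share signal.

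**Figure D4:**
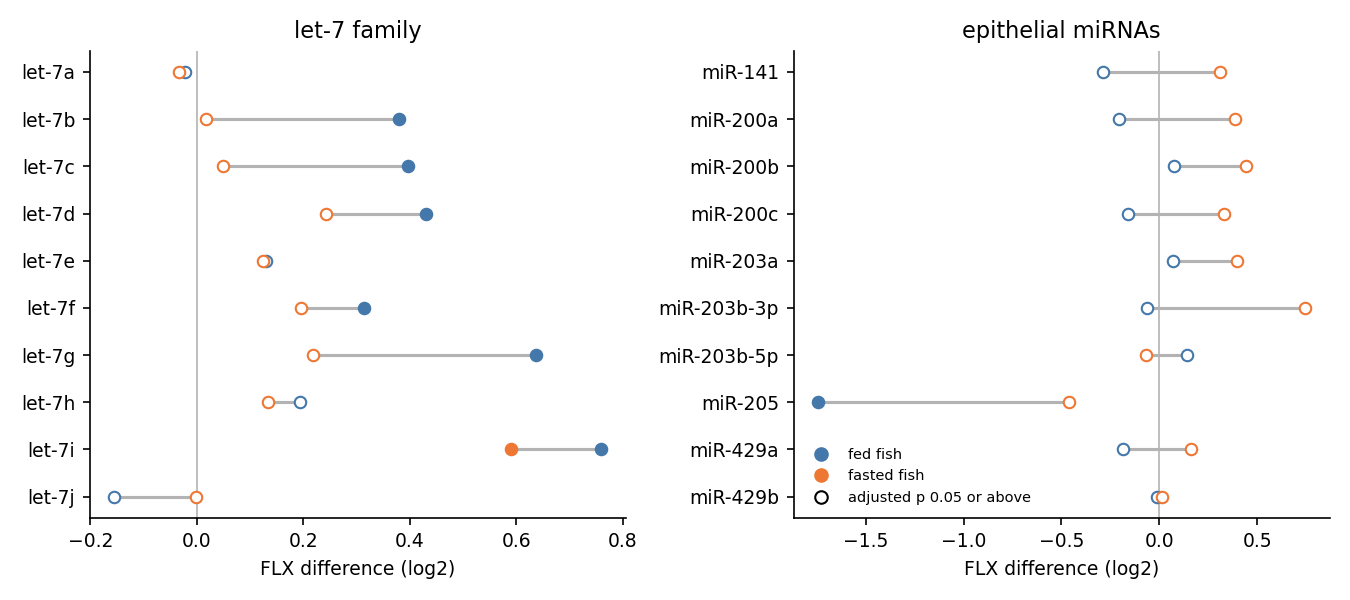
FLX difference (log2) in fed (blue) and fasted fish (orange) of the 10 let-7 and the 10 epithelial miRNAs measured, with filled points for an adjusted p under 0.05. Of the let-7 members 6 have a filled blue point and 1 a filled orange point, and in 9 of 10 epithelial miRNAs the orange point lies to the right of the blue one.

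The epithelial miRNAs (the miR-200 family with miR-141 and miR-429, miR-203 and miR-205) had positive interactions in 9 of 10 members. Their median was 0.43, against -0.02 over all miRNAs and -0.06 over the 79 detected on all arrays of at least 1 group (log2). None passed the test, and 4 had an unadjusted p under 0.05, as 12.9% of all miRNAs had, 1 of them (miR-203b-5p) with a negative interaction. Of the 10, 4 were detected on all arrays of at least 1 group, all with a positive interaction, and 4 (miR-141, miR-203a, miR-203b-5p and miR-429b) were detected on no array. The list counted 7 of 10 members with opposite signs, against 42.7% of all miRNAs. Their FLX differences past the threshold were 1 of 10, miR-205 in fed fish. Probes of related members, such as those of the miR-200 family, may share signal, which was not tested, so that members need not be separate observations.

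Of the miRNAs with known roles in insulin and lipid metabolism, 12 were measured, and 7 of these were among the 79 detected on all arrays of a group. The 2 called, miR-29a and miR-29b, share a seed. Of all miRNAs 1.61% were called, and with the test run on the 79 detected 3 were. The list was chosen with earlier results of these data known, so that its share of calls is no test of the list. Its median interaction was -0.03. An unadjusted p under 0.05, counted for the lists that follow, was reached by 12.9% of all miRNAs. miR-107a and miR-107b, which share the seed of miR-103, had interactions of -0.32 and -0.54 (log2) and no call. Of the liver-enriched miRNAs 0 of 9 measured passed the interaction test in limma and 1, miR-22b, had an unadjusted p under 0.05. In the miR-17/92 clusters 0 of 20 passed and 5 had an unadjusted p under 0.05, with interactions of both signs (miR-19a-3p at 1.04, miR-92a at -0.51). In the gene table (GRCz12tu) mir19a and mir92a-1 stand in 1 run of miRNA genes on chromosome 1. A further miR-92a gene, mir92a-2, stands on chromosome 9, and the arrays do not tell from which gene mature miR-92a came. The blood and immune, muscle, endothelial and mesenchymal, neural, pancreas, maternal clearance and fish interferon-inducible lists had 0 calls each, with 1, 0, 1, 0, 0, 1 and 0 miRNAs at an unadjusted p under 0.05. Of the 13 miRNAs that the study chose on these samples, which are no independent evidence, 1 (miR-181c) was called.

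FLX differences in the same direction in fed and fasted fish were also found. An adjusted p under 0.05 in limma was found for FLX in 32 miRNAs in fed fish, 22 higher and 10 lower, and in 16 in fasted fish, 7 higher and 9 lower. In both feeding states 9 passed, 7 of them in the same direction, namely miR-456, let-7i, miR-30e-3p and miR-99 upwards and miR-19c, miR-26a and miR-30b downwards. The remaining 2 were miR-29b and miR-181a-5p. Some of the 7 were near background in part of the groups. By the share of spots miR-19c was detected on 0 Fed, 1 Fed/FLX, 3 Fasted and 1 Fasted/FLX arrays. miR-99 was detected on 3, 1, 2 and 4 arrays in the same order, and let-7i on 3, 4, 0 and 4. These counts of 9 and 7 were 5 and 4 with the slide as a block, 3 and 2 with an intensity trend, 1 and 1 without background correction, 0 and 0 with a 75th percentile of spot signals over detected miRNAs, and 1 to 8 and 1 to 5 with 1 array left out (1 and 1 without Fed 4, Fasted 1 or Fasted/FLX 4).

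miR-456 was at 4.34, 4.25, 4.31 and 4.37 in Fed, at 4.88, 4.89, 4.75 and 4.88 in Fed/FLX, at 4.29, 4.54, 4.30 and 4.33 in Fasted, and at 4.75, 4.90, 4.93 and 4.80 in Fasted/FLX. All FLX arrays were above all arrays without FLX. By the share of spots miR-456 was detected on 3 Fed, 3 Fed/FLX, 4 Fasted and 4 Fasted/FLX arrays. Its FLX difference was 0.53 in fed (adjusted p = 0.00029 in limma) and 0.48 in fasted fish (adjusted p = 0.00085), and its interaction was -0.06 (95% interval -0.26 to 0.15). The interactions of miR-30b, miR-26a, miR-30e-3p and miR-99 were 0.05, -0.11, 0.06 and 0.02 (log2), with intervals within -0.40 and 0.43. Both arms of miR-30e were measured, and the other arm, miR-30e-5p, was lower with FLX in fed fish (adjusted p = 0.0437 in limma). That call held in 3 of the 16 fits with 1 array left out, and with the slide as a block the adjusted p was 0.0546 in limma.

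The 2 slides of 8 arrays each held 2 arrays of every group, and the interaction could be taken within each. It was 1.13 and 0.94 for miR-29b, 0.93 and 0.79 for miR-29a, and -1.03 and -1.43 for miR-181a-5p (log2, slides 1 and 2). All 17 named miRNAs had the sign of the pooled value on both slides. They were chosen by their interaction over these same arrays, so that this agreement is no independent evidence. With 2 arrays per group, 0 miRNAs were called on slide 1 and 0 on slide 2, the lowest adjusted p of these miRNAs being 0.105 in limma. With the slide as a block the interaction calls were again 4. On both slides the FLX arrays were in slide columns 2 and 4 and the others in columns 1 and 3, so that FLX and slide column cannot be told apart.

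The array Fed/FLX 1 had the lowest weight when arrays were weighted by their fit (0.33), and without it the calls were the same 4. The calls depended on the scaling between arrays. Without quantile normalization no miRNA passed (0 calls), and the lowest adjusted p of miR-29b, miR-29a, miR-181a-5p and miR-181c was 0.0818 in limma, with the median interaction of all miRNAs at 0.25. Relative to that median the interactions kept their sign.

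**Figure D5:**
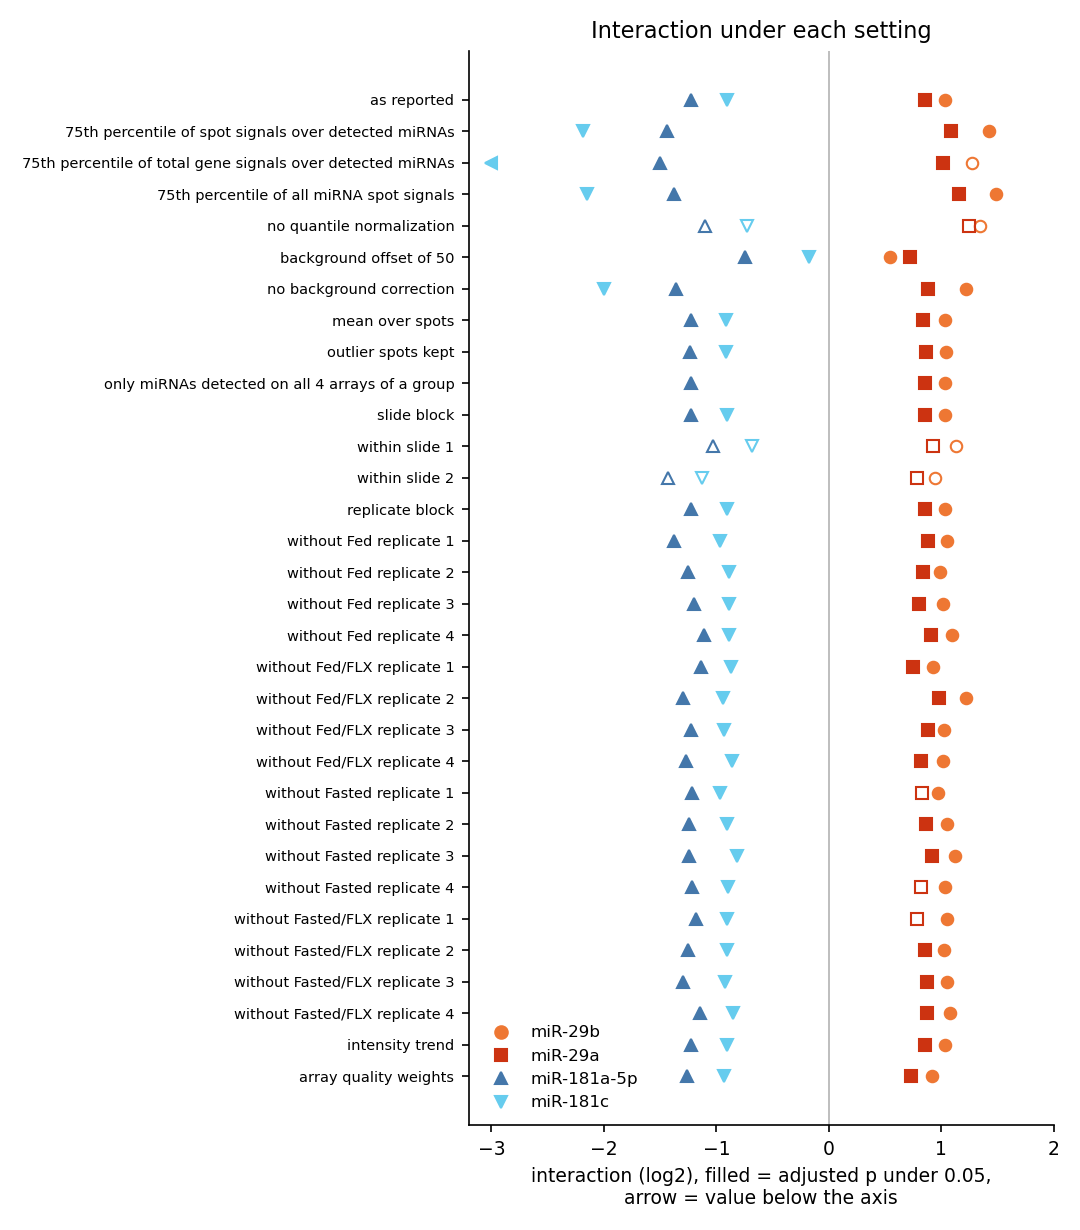
Interaction (x axis, log2) of miR-29b, miR-29a, miR-181a-5p and miR-181c under each setting (y axis), with filled symbols for an adjusted p under 0.05. Every symbol keeps its side of 0, and all are open without quantile normalization and within each slide.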

How the data were processed

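miRNA from zebrafish liver was hybridised to 16 one-colour arrays of a custom design, read with Agilent Feature Extraction 11.0.1.1 per the file headers. The authors deposited 1 scanner file per array, with a background-subtracted intensity per spot and a total gene signal intensity per miRNA, neither normalized between arrays. A second file deposited by the authors holds log2 values of 166 miRNAs and served only to match its columns to scans. The study's methods name RMA without settings.

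RMA values were computed from the 14880 miRNA spots per array (60 per miRNA, 248 miRNAs) by normal-exponential background correction, removal of outlier spots, quantile normalization, log2 and median polish (at most 20 iterations). No mean signal was present, so the background-subtracted signal was the input. Groups were compared with limma 3.58.1 on R 4.3.3 (lmFit and eBayes, 1 mean per group, all 16 arrays, Benjamini-Hochberg over 248 miRNAs, adjusted p under 0.05, no minimum fold), and detected counts by exact permutation (scipy 1.17.1). The RMA and interaction steps were tested on simulated data. The simulated interactions were larger than those called here, in miRNAs detected on all arrays, and brightness was unrelated to the groups. That run therefore does not show how the steps perform at the effects reported here. Depth is signal over background, and the number of arrays limits precision. A lower-bound fold is the brighter group's mean over the dimmer group's mean (of normalized log2 values), each array of the dimmer group entering at its own value or at its lowest detected level, whichever was higher. It is a bound with regard to detection only, and not to the spread between arrays.

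Named miRNAs are the interaction calls plus, among miRNAs above background on every array of at least 1 group, those of lowest unadjusted p up to 8 per direction, and the lists. Members and lists were chosen with earlier results of these data known. miR-456 and the other miRNAs called in both feeding states, and miR-16a, were named after their values were seen. Replicate numbers were checked for pairing by the correlation of deviations from group means.

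Alternatives were a common 75th percentile of spot or total gene signals, no quantile normalization, a background offset of 50 or none, the mean over spots, outlier spots kept, detected miRNAs only (79), slide or replicate block, each slide alone, each array left out, an intensity trend, array weights, unadjusted p, at least 2-fold, and the methods' test. Figures used matplotlib 3.10.9.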

Additional observations from a re-analysis of the deposited data

Results flagged for a closer look

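The FLX difference differed between fed and fasted fish by the interaction term in limma for 4 miRNAs. The interaction was 1.04 for miR-29b, 0.86 for miR-29a, -1.23 for miR-181a-5p and -0.91 for miR-181c (log2 RMA values). By spot share miR-181c was detected on no array, so its value is a difference near background and no fold is read from it. It ranged from -6.68 to -0.18 under other scalings and background corrections. These include the scaling of total gene signals, where arrays on which the scanner software did not detect miR-181c entered at a common floor. In each of the 4 miRNAs the 2 FLX differences had opposite signs.

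A single array stood far from the others of its group in 4 of 72 groups of 4 arrays, where chance gives about 1 in 20, or 3.6. These were let-7g at 7.99 on Fed/FLX 2, at 8.05 on Fasted 2 and at 8.32 on Fasted/FLX 3, and miR-451 at 9.95 on Fasted 1. None was of a miRNA with an interaction call. Without Fasted/FLX 3 let-7g had an interaction adjusted p under 0.05, at 0.0472 in limma.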

How the results depend on the processing

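The sign of the interaction was the same in all settings run for each of the 17 named miRNAs, which were chosen by their interaction on these same arrays. The sign could not change with the slide or replicate block, the intensity trend, the filter on detected miRNAs, unadjusted p or the 2-fold minimum. These leave the estimate as it is. The size of the interaction varied, and that of let-7g ran from -0.52 to -0.015 (log2). The 4 interaction calls became 0 without quantile normalization, 0 within slide 1 and 0 within slide 2 (where 2 arrays per group remain), 32 by unadjusted p (24 of them with opposite signs), 2 at 2-fold or more (miR-181a-5p and miR-29b), and 3 to 6 with 1 array left out. Counts of calls with opposite signs were 0, 0, 0, 24 and 2 in the same settings, and 3 to 6 with 1 array left out. miR-29a was lost without Fasted 1, Fasted 4 or Fasted/FLX 1, miR-29b under the total gene signal (adjusted p = 0.0698 in limma), and miR-181c under the filter on detected miRNAs, which removes it. Calls added were miR-103 (75th percentile of spot signals over detected miRNAs, without Fed 2), miR-200a (without Fed 2) and miR-92a (mean over spots, replicate block, without Fed/FLX 2 or Fasted 2), miR-16a (without Fed/FLX 4) and let-7g (without Fasted/FLX 3). The cause was not tested.

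The 32 calls for FLX in fed and the 16 in fasted fish moved more. They were 13 and 4 with a 75th percentile of spot signals over detected miRNAs, 14 and 7 over all, 6 and 6 with total gene signals, 6 and 8 without quantile normalization, 16 and 9 without background correction, 0 and 0 within slide 1, 1 and 0 within slide 2, 58 and 42 by unadjusted p, and 1 and 0 at 2-fold or more. The intensity trend gave 10 in fasted fish. With 1 array left out they were 12 to 39 in fed fish (lowest without Fed 4, and 19 without Fed/FLX 1, the array of lowest weight) and 2 to 16 in fasted fish (2 without Fasted 1, 3 without Fasted/FLX 1, 3 without Fasted/FLX 4). The methods' test gave 32 and 20 miRNAs, 1 (miR-205) and 0 at 2-fold or more, and 2 and 2 after Benjamini-Hochberg.

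The split of higher and lower calls in fed fish was 22 and 10, and 7 and 6 with the 75th percentile of spot signals over detected miRNAs, 6 and 8 over all, and 5 and 1 with total gene signals. In fasted fish it was 7 and 9, against 1 and 3, 3 and 4, and 1 and 5, and 7 and 1 without quantile normalization. The difference of 11.2 detected miRNAs between Fasted/FLX and Fasted was 4.5 by the scanner software's mark (exact permutation p = 0.314) and 9.75 to 12.75 with 1 array left out, when p cannot go below 0.0571.

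Replicate numbers did not pair the arrays of the design: all 4 same-number correlations were over 0.1 for Fed with Fasted, but 0 to 2 of 4 in the other 5 pairs of groups. With the replicate block the interaction calls were 5, and the calls for FLX 30 in fed and 14 in fasted fish.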

Other observations

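The signals of miR-181a-5p and miR-29a on the same array were also set as a ratio, which needs no scaling between arrays and was chosen after the calls were seen, so that it is a description with no test. The log2 ratio of miR-181a-5p to miR-29a was -2.09 ± 0.40 in Fed and -1.05 ± 0.49 in Fed/FLX, and -1.25 ± 0.16 in Fasted and -2.73 ± 0.27 in Fasted/FLX (SD, n = 4). In fasted fish it was -1.39 to -1.07 without and -2.95 to -2.36 with FLX, with no overlap. In fed fish it was -2.40 to -1.54 without and -1.60 to -0.41 with FLX, with an overlap of 1 array of each group. Against miR-29b the change of the ratio with FLX was 1.32 in fed and -1.45 in fasted fish. These ratios show unequal change of the 2 miRNAs and not which of them moved.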
